A study of Homo sapiens with 24 samples.

Results

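Aminoacyl-tRNA synthetases are the enzymes that join each amino acid to its transfer RNAs, and 36 human genes for them were followed here after knockdown or overexpression of NDUFS6, a subunit of mitochondrial complex I. The genes were chosen by name: 20 encode cytosolic enzymes and 16, with the suffix 2, mitochondrial ones. Each of the 36 names, most of them in the older form without a final 1, occurred once among the 60564 rows of the table. In SK-N-BE(2) cells with NDUFS6 knocked down, 15 of the 20 cytosolic genes rose and 3 fell. Of the 16 mitochondrial genes 3 rose and 8 fell, where 27.4% of all tested genes rose and 28.3% fell. In SH-SY5Y cells the knockdown gave 4 higher and 8 lower cytosolic genes, where 26.3% of all tested genes were higher and 29.6% lower, and with overexpression every member changed by under 1 log2 unit in both lines.

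Both lines are established human neuroblastoma lines, SK-N-BE(2) with amplified MYCN and SH-SY5Y without. Within each line there were 4 groups of 3 libraries: cells with a short hairpin RNA against NDUFS6 (knockdown), its empty vector control, cells with the NDUFS6 coding sequence (overexpression), and the empty vector control of that construct. All cells were grown in Minimum Essential Medium with added pyruvate and non-essential amino acids, infected with lentivirus in 5 µg/mL polybrene and selected with 2 µg/mL puromycin, controls included. The knockdown control is an empty vector, not a hairpin of another sequence, and the number of hairpins was not stated. The 3 libraries of a group are called biological replicates, but whether each came from its own infection or culture was not stated, so p-values measure only how far these libraries spread, and that spread may be technical.

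RNA of whole cultures was sequenced, and the deposited values are FPKM, which divide the reads of a gene by its length and by the size of the library; how many reads stand behind a value is unknown. Fewer cells that express a gene and less of its RNA per cell cannot be told apart in such samples. Changes are differences in mean log2(FPKM + 1), construct minus its own control, fitted with limma over the 15903 genes that reached 1 FPKM in 3 or more libraries. The threshold for a call was a p of 0.05, two-sided and adjusted over all of these genes by the Benjamini-Hochberg method. The added 1 makes the change of a gene of low level look smaller. All 36 members passed the filter on low values. Where groups of libraries are said not to overlap, this describes the libraries only. The share of all tested genes without overlap was not counted, and most genes shown this way were picked for a small adjusted p.

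NDUFS6 stood at 1.09, 1.61 and 1.299 FPKM in SK-N-BE(2) knockdown libraries, against 9.29, 12.2 and 11.9 FPKM in their controls. In SH-SY5Y it stood at 3.11, 3.98 and 4.98 FPKM with the hairpin, against 11.2, 11.1 and 12.1 FPKM in the controls. The log2 changes were -2.38 ± 0.12 (SE, adjusted p = 1.4e-12) in SK-N-BE(2) and -1.33 ± 0.12 (SE, adjusted p = 7.3e-09) in SH-SY5Y, so the libraries follow their labels. The knockdown was deeper in SK-N-BE(2), by a log2 difference of -1.05 ± 0.17 (SE, adjusted p = 2.1e-05). With the coding sequence NDUFS6 averaged 208 ± 7.74 FPKM in SH-SY5Y, against 11.0 ± 0.679 FPKM in its controls (SD, n = 3 each). The SK-N-BE(2) overexpression libraries held 17.2 ± 2.07 FPKM, against 12.8 ± 1.03 FPKM in theirs (SD, n = 3 each), a log2 change of 0.39 ± 0.12 (SE, adjusted p = 0.017). The overexpression groups of the lines therefore differ widely in how much NDUFS6 they carry.

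Of 10 neuroblastoma genes, among them DBH and CHGA, 10 reached 1 FPKM in each SK-N-BE(2) group and 9 in each SH-SY5Y group, where TH averaged 0 to 0.200 FPKM. Their summed level was 704.5 to 879 FPKM in SK-N-BE(2) knockdown libraries, against 1233 to 1258 FPKM in their controls, and 836 to 858 FPKM in SH-SY5Y knockdown libraries, against 1163 to 1179 FPKM. None of 5 endothelial markers reached 1 FPKM in any group. Of 5 epithelial markers 2 reached 1 FPKM in SK-N-BE(2) knockdown libraries, with a summed level of 2.56 to 3.95 FPKM, against 0 markers and 1.04 to 1.53 FPKM in their controls; in SH-SY5Y the sums were 1.39 to 1.83 FPKM with knockdown, against 2.38 to 3.15 FPKM. The 5 Schwann cell markers summed to 15.8 to 16.9 FPKM in SH-SY5Y knockdown libraries, against 12.1 to 12.8 FPKM in their controls, and to 7.17 to 9.22 FPKM in SK-N-BE(2) knockdown libraries, against 8.27 to 8.29 FPKM. Of 6 immune markers CD68 alone reached 1 FPKM, in SH-SY5Y, at 10.1 FPKM in knockdown libraries and 1.89 FPKM in their controls. The pan-leukocyte gene PTPRC stayed at or below 0.143 FPKM in every library. The summed level of 6 fibroblast genes, 4 or 5 of which reached 1 FPKM in each group, was 91.4 to 95.7 FPKM in SH-SY5Y knockdown libraries, against 35.9 to 39.3 FPKM in their controls, and 108 to 127 FPKM in SK-N-BE(2) knockdown libraries, against 119 to 124 FPKM. The part of these shifts in the results below was not tested.

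Cytosolic synthetases charge the tRNAs of the main translation system, and a separate set, encoded in the nucleus and imported, charges the tRNAs made in mitochondria, where the respiratory chain subunits of mitochondrial DNA are translated. GARS and KARS each serve both compartments from a single gene, and EPRS carries the glutamyl and the prolyl enzyme in a single chain. EPRS, IARS, LARS, MARS, QARS, RARS, KARS and DARS belong to the cytosolic multi-synthetase complex. The transcription factor ATF4, made when translation slows under stress, is known to activate many cytosolic synthetase genes through a C/EBP-ATF response element near their start.

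In the control cells the cytosolic genes were expressed at higher levels than the mitochondrial ones. The 20 cytosolic genes summed to 522 ± 5.82 FPKM in the knockdown controls of SK-N-BE(2) and 465 ± 1.002 FPKM in those of SH-SY5Y (SD, n = 3 each). The 16 mitochondrial genes summed to 147 ± 3.48 FPKM and 132 ± 1.16 FPKM in the same groups. FPKM is a level per length, so genes can be ranked by it. EPRS was highest among the cytosolic genes of both knockdown controls, at 74.7 ± 1.12 FPKM in SK-N-BE(2) and 45.3 ± 0.648 FPKM in SH-SY5Y, where KARS came next at 44.1 ± 1.19 FPKM, with libraries that overlapped those of EPRS. CARS was lowest, at 3.37 ± 0.104 and 4.16 ± 0.150 FPKM. Among the mitochondrial genes IARS2 was highest at 42.2 ± 0.875 and 47.7 ± 1.25 FPKM, close to the level of IARS itself in SK-N-BE(2), 42.3 ± 1.28 FPKM.

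The control cells of the lines were compared as well, where most genes of the whole table differed. Over both empty vector controls of each line, SK-N-BE(2) minus SH-SY5Y, 11 cytosolic members were higher and 7 lower, and 8 mitochondrial members were higher and 5 lower, where 33.5% of all tested genes were called higher and 43.8% lower. FARSB, the β chain of the phenylalanyl enzyme, stood apart from its partner chain FARSA: it held 19.3 ± 0.692 FPKM in the knockdown controls of SK-N-BE(2) and 6.36 ± 0.366 FPKM in those of SH-SY5Y (SD, n = 3 each). Its log2 line difference was 1.40 ± 0.03 (SE, adjusted p = 8.3e-19), against -0.14 ± 0.03 (SE, adjusted p = 0.0012) for FARSA. QARS, which charges glutamine tRNAs, was lower in SK-N-BE(2) by a log2 difference of -1.29 ± 0.04 (SE, adjusted p = 6.6e-17), and NARS, the asparaginyl enzyme, by -0.82 ± 0.03 (SE, adjusted p = 3.2e-15). WARS2 and MARS2 had the largest mitochondrial line differences, 1.46 ± 0.05 (SE, adjusted p = 6.6e-16) and 1.05 ± 0.06 (SE, adjusted p = 1.9e-12).

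Knockdown in SK-N-BE(2) gave the widest changes. The cytosolic genes summed to 1074, 948 and 933 FPKM in the knockdown libraries, against 516, 521 and 528 FPKM in their controls, while the mitochondrial genes summed to 126, 131 and 127 FPKM, against 144, 147 and 151 FPKM. Neither pair of groups overlapped. The ratio of the cytosolic to the mitochondrial sum was 8.54, 7.23 and 7.34 in knockdown libraries, against 3.60, 3.54 and 3.51 in their controls. Among all tested genes 27.4% were called higher and 28.3% lower; of the cytosolic members 15 of 20 were higher and 3 lower, and of the mitochondrial members 3 of 16 were higher and 8 lower. With every library scaled to a fixed sum (TPM), 5323 genes were called higher and 3436 lower, in place of 4361 and 4494. The cytosolic members then still split as 15 higher, with 1 lower, and 5 mitochondrial members in place of 3 were higher.

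**Figure D1:**
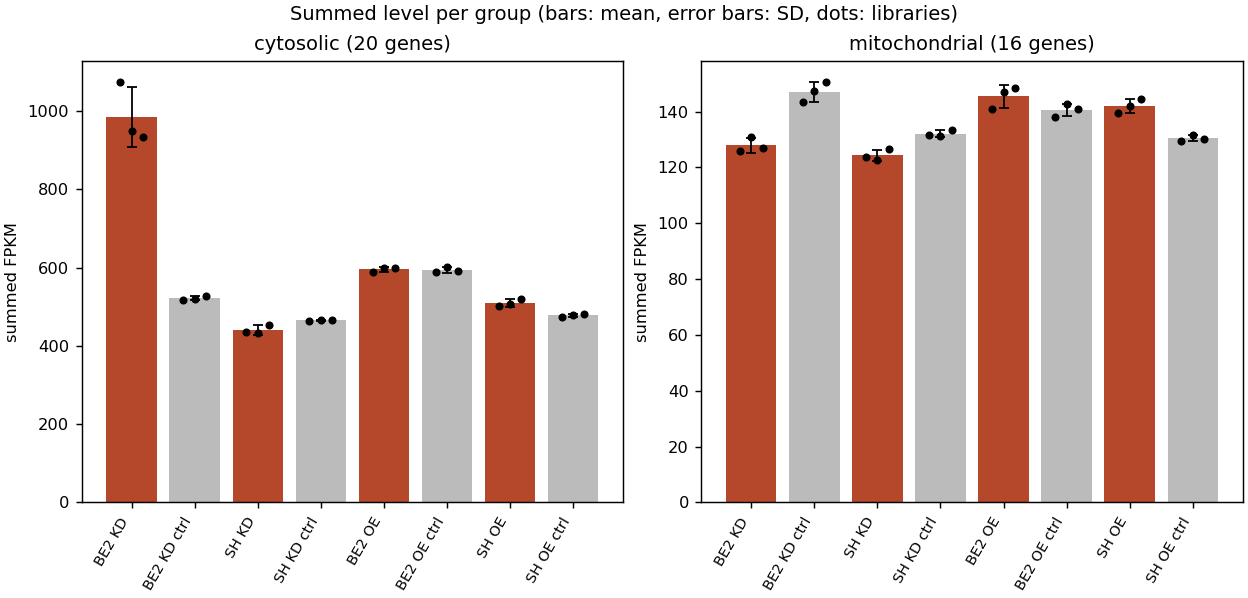
Summed FPKM of the 20 cytosolic (left) and 16 mitochondrial (right) synthetase genes in the 8 groups; bars are means, error bars the SD of 3 libraries and dots the libraries, with red for construct groups and grey for empty vector controls. The cytosolic sum of the SK-N-BE(2) knockdown group, 985 ± 77.4 FPKM, stands above the 7 other groups, which lie between 440.5 and 596 FPKM.

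The 8 cytosolic genes that rose by more than 1 log2 unit were CARS, GARS, SARS, AARS, WARS, MARS, YARS and TARS. Against the line's overexpression control all 8 were called higher too, but by less. There CARS (1.61), GARS (1.54), WARS (1.39), SARS (1.27) and AARS (1.17) stayed above 1, and MARS (0.96), TARS (0.87) and YARS (0.76) did not. AARS (chr16:70252295-70289543 on the minus strand, hg38), the alanyl enzyme, was at 103, 90.04 and 88.5 FPKM in knockdown libraries, against 27.6, 27.2 and 28.6 FPKM in their controls, a log2 change of 1.72 ± 0.05 (SE, adjusted p = 9.0e-16). CARS (chr11:3000922-3057613, minus strand), the cysteinyl enzyme and the gene with the largest change in the family, was at 20.2, 16.7 and 16.9 FPKM, against 3.25, 3.44 and 3.41 FPKM, 5.33-fold in mean FPKM and 2.11 ± 0.06 (SE, adjusted p = 1.2e-15) in log2. GARS (chr7:30594681-30634033, plus strand), the glycyl enzyme of both compartments, was at 139.7, 115 and 107 FPKM, against 28.9, 29.5 and 29.9 FPKM, a log2 change of 1.99 ± 0.06 (SE, adjusted p = 2.6e-15). For all 3 genes the lowest knockdown library lay at more than 3 times the highest control library. In each of them knockdown library 1 was the highest of its group.

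The promoters of these 3 genes are printed because each holds the core of the C/EBP-ATF response element. The letters searched were TGATGNAA on both strands, in the RefSeq windows from 250 bases before to 50 after each gene's start (GRCh38.p14, the assembly series of hg38). The stretch up to base 30 after the start is shown 5′ to 3′ on the gene's strand, with the match in capitals.
AARS, chr16:70289477-70289756, minus strand: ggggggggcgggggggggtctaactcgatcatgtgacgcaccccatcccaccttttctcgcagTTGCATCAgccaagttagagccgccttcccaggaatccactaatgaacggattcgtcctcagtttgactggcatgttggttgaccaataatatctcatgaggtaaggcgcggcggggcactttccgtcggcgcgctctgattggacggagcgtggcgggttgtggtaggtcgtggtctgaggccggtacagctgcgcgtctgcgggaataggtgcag
CARS, chr11:3057394-3057673, minus strand: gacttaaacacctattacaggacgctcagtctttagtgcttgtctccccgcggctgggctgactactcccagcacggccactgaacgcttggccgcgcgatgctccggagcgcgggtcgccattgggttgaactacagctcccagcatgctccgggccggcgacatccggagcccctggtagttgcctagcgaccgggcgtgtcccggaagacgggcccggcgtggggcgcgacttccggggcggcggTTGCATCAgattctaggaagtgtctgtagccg
GARS, chr7:30594628-30594907, plus strand: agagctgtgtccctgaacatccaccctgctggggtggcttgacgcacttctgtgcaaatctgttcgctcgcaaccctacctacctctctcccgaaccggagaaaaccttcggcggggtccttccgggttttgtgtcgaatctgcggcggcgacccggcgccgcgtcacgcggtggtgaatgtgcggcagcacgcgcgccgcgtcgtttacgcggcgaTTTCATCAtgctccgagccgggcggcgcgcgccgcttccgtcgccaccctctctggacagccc
The match begins 187 bases before the start in AARS, 2 bases before it in CARS and 33 bases before it in GARS. In all 3 it reads on the strand opposite to the gene. CARS and GARS each have 2 windows, for 2 starts, of which the printed one holds the match.

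RefSeq windows were matched for 30 of the 36 members by symbol, all but DARS, LARS, VARS, YARS, AARS2 and VARS2. The motif occurred in 7 of 16 cytosolic members and in 1 of 14 mitochondrial members, YARS2, where a match in any window of a gene was counted. Of all 35116 windows of that length, 1270 held it, 3.62%. That share is per window and the member counts are per gene, and several members have more than 1 window, so the measures are not alike. The other matches are shown with 10 bases on either side, to compare their letters and their distance from the start.
IARS, chr9:92293693-92293720, minus strand: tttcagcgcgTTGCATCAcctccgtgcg
MARS, chr12:57488054-57488081, plus strand: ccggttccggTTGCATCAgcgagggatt
NARS, chr18:57621805-57621832, minus strand: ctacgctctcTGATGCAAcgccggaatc
TARS, chr5:33440957-33440984, plus strand: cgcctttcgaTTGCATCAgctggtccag
YARS2, chr12:32756077-32756104, minus strand: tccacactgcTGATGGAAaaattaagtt
The match begins before the start by 13 bases in IARS, 4 in MARS and 197 in YARS2, and after it by 15 bases in NARS and 3 in TARS. TARS has another window, for another start, without a match. All 7 cytosolic members with the motif rose in SK-N-BE(2) knockdown cells, with log2 changes between 0.76 and 2.11. Of the 9 cytosolic members with a window and no such letters, 6 rose and 1 fell, with log2 changes between -0.20 and 1.80, beside 27.4% and 28.3% of all tested genes; SARS and WARS are among those that rose. YARS2 did not pass the test, at a log2 change of 0.05. A match is a description of the letters and does not show that a factor binds there, and these calls were made on the same libraries for both sets of genes. ATF4 itself held 217, 222 and 194 FPKM in knockdown libraries, against 77.1, 80.8 and 85.5 FPKM in their controls, a log2 change of 1.37 ± 0.07 (SE, adjusted p = 2.0e-12).

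TARS (chr5:33440696-33469539, plus strand), the threonyl enzyme, was at 70.7, 63.7 and 60.8 FPKM in SK-N-BE(2) knockdown libraries, against 26.8, 26.1 and 26.3 FPKM in their controls, a log2 change of 1.27 ± 0.05 (SE, adjusted p = 1.1e-14). MARS (chr12:57475445-57517569, plus strand), the methionyl enzyme, which also charges the initiator tRNA, was at 31.5, 26.2 and 26.9 FPKM, against 9.89, 9.93 and 10.0 FPKM, a log2 change of 1.41 ± 0.05 (SE, adjusted p = 2.1e-14). In neither gene did the groups overlap. MARS shares 355 exon bases, 5.05% of its own, with DDIT3 on the opposite strand, and DDIT3, a stress-induced transcription factor, held 273 FPKM in knockdown libraries, against 3.33 FPKM in controls. The libraries were strand-specific, but whether strand was used in the counting was not stated, so the share of MARS values that came from DDIT3 reads is uncertain.

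SARS, the seryl enzyme, reached the highest level of any member, 143, 124 and 114 FPKM in knockdown libraries, against 35.9, 34.8 and 36.1 FPKM in controls (log2 change 1.80 ± 0.07, SE, adjusted p = 4.0e-14). WARS, the tryptophanyl enzyme, was at 36.6, 21.4 and 22.2 FPKM, against 8.62, 8.49 and 8.51 FPKM, a log2 change of 1.496 ± 0.12 (SE, adjusted p = 1.3e-09), with library 1 well above the other 2 and all 3 above every control; without library 1 the change was 1.26. YARS, the tyrosyl enzyme, was at 30.3, 27.1 and 25.2 FPKM, against 10.4, 10.9 and 10.8 FPKM, a log2 change of 1.28 ± 0.05 (SE, adjusted p = 1.5e-13). Below 1 log2 unit, NARS (0.87), IARS (0.76), EPRS (0.69), HARS (0.50), FARSA (0.37), RARS (0.30) and LARS (0.24) also rose. The 2 chains of the phenylalanyl enzyme did not give the same result: FARSA passed the test and FARSB, at 0.01 (adjusted p = 0.86), did not. KARS, the lysyl enzyme of both compartments, was at 40.2 ± 2.87 FPKM in knockdown libraries and 40.6 ± 0.718 FPKM in controls (SD, n = 3 each; log2 change -0.02, adjusted p = 0.84).

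The 3 cytosolic genes that fell were VARS, QARS and DARS. VARS (chr6:31777518-31795953, minus strand), the valyl enzyme, was at 19.6, 21.0 and 21.7 FPKM in knockdown libraries, against 28.1, 30.2 and 29.4 FPKM in their controls, without overlap, a log2 change of -0.48 ± 0.04 (SE, adjusted p = 1.1e-08). QARS was at 13.0, 13.9 and 13.2 FPKM, against 14.0, 15.6 and 17.2 FPKM, a log2 change of -0.20 ± 0.06 (SE, adjusted p = 0.0041); its highest knockdown library and its lowest control library were close. DARS, the aspartyl enzyme, changed by -0.14 ± 0.04 (SE, adjusted p = 0.0065). Against the other empty vector control of the line, which had received the overexpression vector, none of the 3 was called lower: VARS stood at -0.05, DARS at 0.12 and QARS at 0.28. Of the 15 genes that rose, 13 were also called higher against that control, all but LARS and RARS. Both comparisons use the same 3 knockdown libraries, and the share of all tested genes called against both controls was not counted.

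The genes were also split by membership in the multi-synthetase complex. Beside the 27.4% of all tested genes called higher and 28.3% lower, 5 of its 8 genes rose and 2 fell, the share that fell being near that of all genes, with a median log2 change of 0.27, and of the 12 cytosolic genes outside it 10 rose and 1 fell, with a median of 1.27; the median over all tested genes was -0.01. The 9 class I and 10 class II cytosolic enzymes, the 2 structurally unrelated families of synthetases, had medians of 0.76 and 0.68. These medians describe the libraries at hand, and the differences between the sets were not tested.

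**Figure D2:**
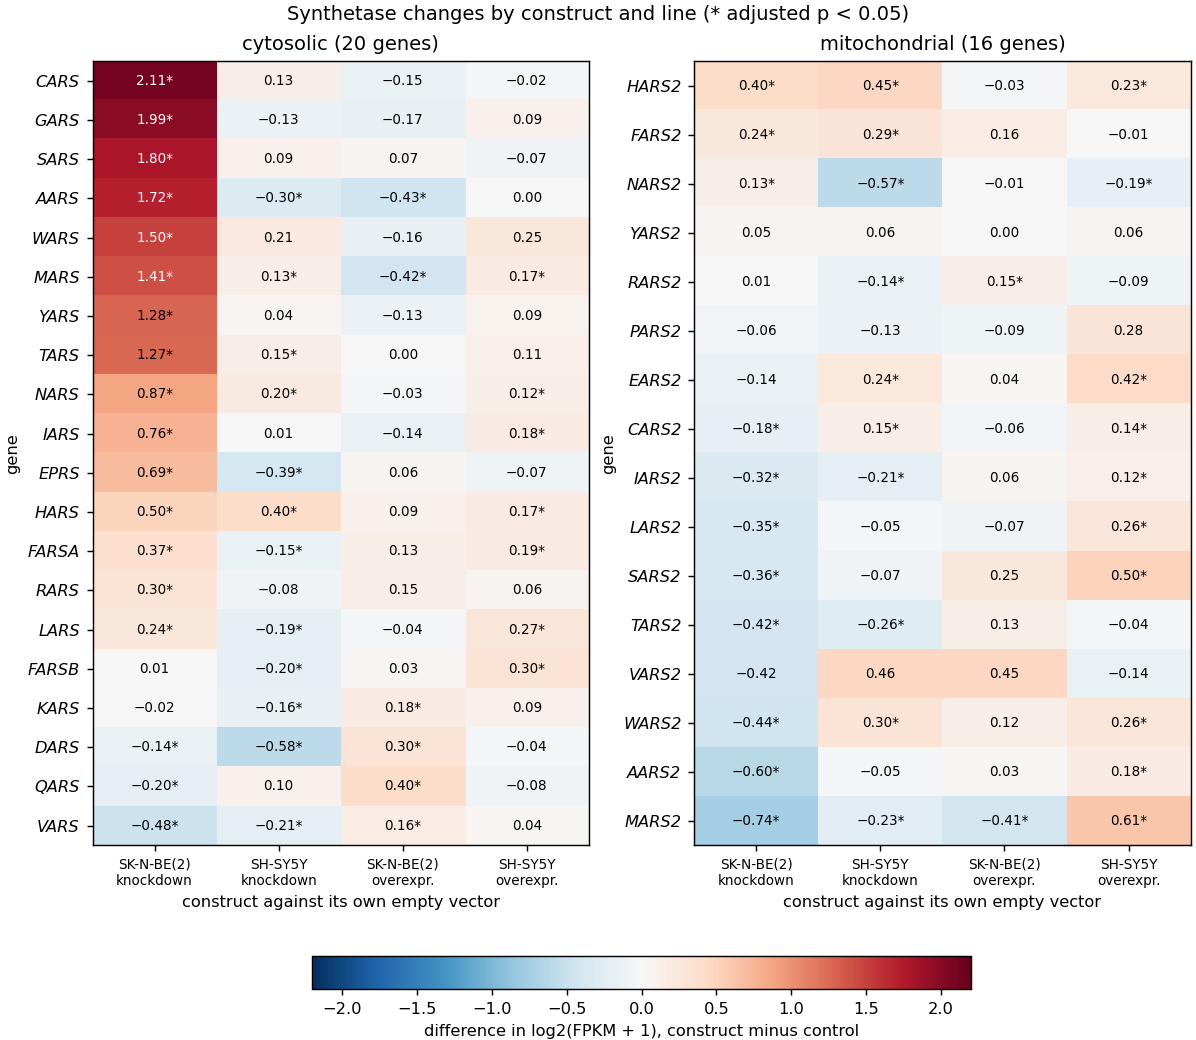
Change in log2(FPKM + 1), construct minus its own empty vector control, for the 20 cytosolic (left) and 16 mitochondrial (right) genes in the 4 construct comparisons, sorted by the SK-N-BE(2) knockdown; an asterisk marks an adjusted p under 0.05. Values above 1 occur in 8 cytosolic genes of the SK-N-BE(2) knockdown column and nowhere else.

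The mitochondrial genes changed by less and not all in the same direction. Of the 16, 8 fell, 3 rose and 5 were not called, with log2 changes between -0.74 and 0.40. AARS2 (chr6:44299654-44313326, minus strand), the mitochondrial alanyl enzyme, was at 4.37, 4.90 and 5.14 FPKM in SK-N-BE(2) knockdown libraries, against 7.33, 7.82 and 8.31 FPKM in their controls, a log2 change of -0.60 ± 0.06 (SE, adjusted p = 7.1e-08). IARS2 (chr1:220094102-220148041, plus strand), the isoleucyl enzyme, was at 32.9, 34.7 and 32.9 FPKM, against 41.3, 42.2 and 43.0 FPKM, a log2 change of -0.32 ± 0.03 (SE, adjusted p = 9.6e-08). MARS2 (chr2:197705369-197708387, plus strand), the methionyl enzyme, was at 3.58, 3.69 and 4.34 FPKM, against 7.22, 7.22 and 6.996 FPKM, a log2 change of -0.74 ± 0.09 (SE, adjusted p = 3.1e-07), the largest decrease in the family. In all 3 genes every knockdown library lay below every control. WARS2 (-0.44), TARS2 (-0.42), SARS2 (-0.36), LARS2 (-0.35, from a level near 1 FPKM) and CARS2 (-0.18) fell as well. SARS2 lost its call without control library 3 (-0.21).

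HARS2 and FARS2 rose against this direction. HARS2, the histidyl enzyme, was at 10.1, 10.8 and 11.5 FPKM in knockdown libraries, against 8.63, 8.03 and 7.27 FPKM in controls (log2 change 0.40 ± 0.07, SE, adjusted p = 1.3e-04), and FARS2, the phenylalanyl enzyme, was at 1.99, 2.44 and 2.00 FPKM, against 1.55, 1.62 and 1.79 FPKM (log2 change 0.24 ± 0.09, SE, adjusted p = 0.032). NARS2 rose by 0.13. Against the other control of the line none of these 3 was called higher, with HARS2 at -0.16, FARS2 at 0.23 and NARS2 at -0.03, and WARS2 was higher there, at 0.31. Of the 8 that fell, 6 were also called lower against that control, with the same knockdown libraries: AARS2, CARS2, IARS2, LARS2, MARS2 and TARS2. FARS2 and NARS2 each lost their call in 3 of the 6 fits that left out a library (log2 change 0.17 to 0.28 and 0.10 to 0.15), so that without knockdown library 2 or control library 2 only HARS2 was called higher. HARS2 shares 437 exon bases, 11.7% of its own, with HARS on the opposite strand and 4.07% with ZMAT2 on the same strand.

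Set side by side for each amino acid, 17 pairs of a cytosolic and a mitochondrial gene can be formed, with EPRS paired to both EARS2 and PARS2 and both FARSA and FARSB to FARS2. The cytosolic gene had the higher log2 change in 15 of the 17 in SK-N-BE(2) knockdown cells, and in 8 of them the cytosolic gene rose and the mitochondrial gene fell. The widest pairs were alanine, with a gap of 2.32 log2 units between AARS and AARS2, and cysteine, with 2.29. The exceptions were FARSB against FARS2 and VARS against VARS2. The median log2 change of the cytosolic members was 0.73 and that of the mitochondrial members -0.25, and the gap between the medians was 1.16, 0.82 and 0.91 in the 3 knockdown libraries taken alone.

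**Figure D3:**
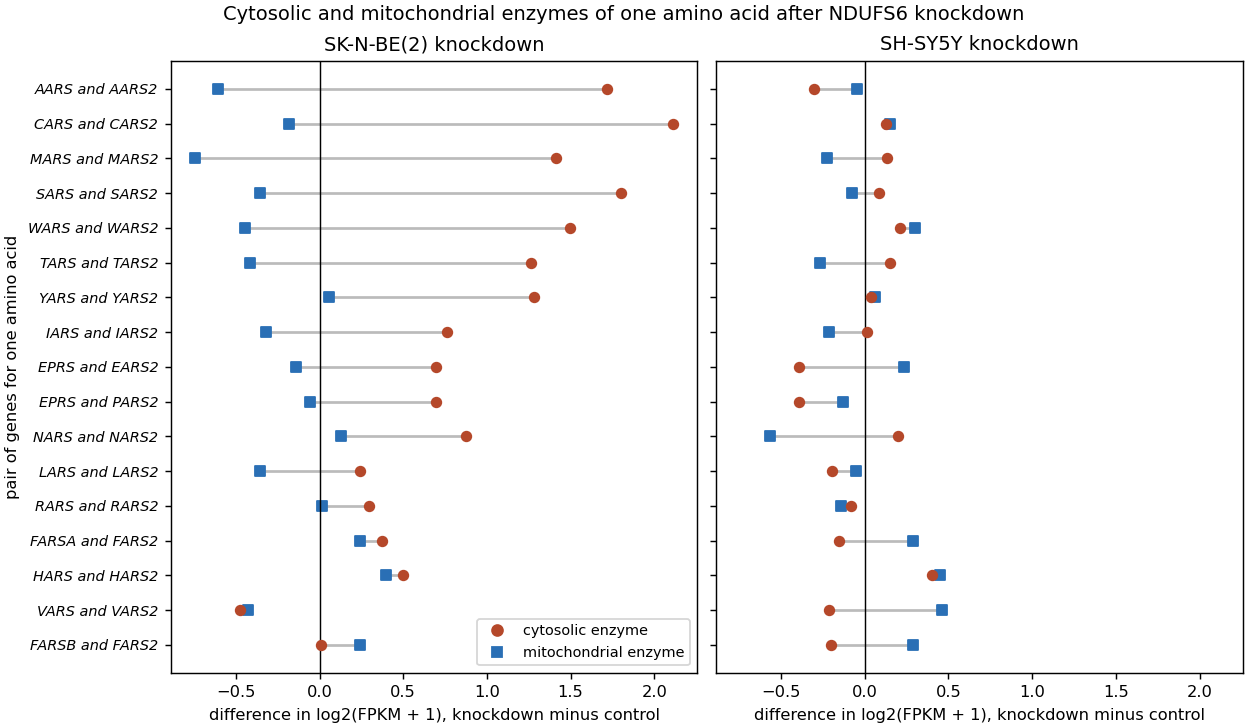
Change in log2(FPKM + 1) after NDUFS6 knockdown, knockdown minus control, for 17 pairs of genes that serve the same amino acid, in SK-N-BE(2) (left) and SH-SY5Y (right); red circles are cytosolic and blue squares mitochondrial enzymes. The cytosolic circle lies to the right of the mitochondrial square in 15 pairs in SK-N-BE(2) and in 6 pairs in SH-SY5Y.

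In SH-SY5Y the cytosolic members leaned the same way after knockdown as all tested genes, with more lower than higher. The cytosolic genes summed to 435, 432 and 454 FPKM in knockdown libraries, against 464, 466 and 465 FPKM in their controls, and the mitochondrial genes to 124, 123 and 127 FPKM, against 132, 131 and 133 FPKM. Of all tested genes 26.3% were called higher and 29.6% lower. Of the members, 4 cytosolic were higher and 8 lower, and 5 mitochondrial were higher and 5 lower, the mitochondrial shares being near those of all genes. Against the line's other control the cytosolic split was 3 higher and 6 lower. No member reached a change of 1 log2 unit. The median log2 changes were -0.03 for the cytosolic and -0.05 for the mitochondrial members, against -0.01 over all tested genes. With a fixed sum per library, 3205 genes were called higher and 5761 lower, in place of 4186 and 4714, and the cytosolic split became 1 higher and 10 lower.

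DARS was at 14.7, 14.7 and 14.9 FPKM in SH-SY5Y knockdown libraries, against 20.8, 23.3 and 23.6 FPKM in their controls, a log2 change of -0.58 ± 0.04 (SE, adjusted p = 3.2e-10). EPRS was at 34.5, 33.2 and 34.9 FPKM, against 45.8, 44.6 and 45.4 FPKM, a log2 change of -0.39 ± 0.05 (SE, adjusted p = 1.3e-06). AARS was at 18.2, 18.3 and 19.9 FPKM, against 23.3, 23.6 and 23.3 FPKM (-0.30 ± 0.05, SE, adjusted p = 4.1e-05), but at 0.06 against the other control of the line. None of these groups overlapped. LARS, the leucyl enzyme, was at 33.1, 32.0 and 29.98 FPKM, against 36.1, 35.7 and 37.2 FPKM (-0.19 ± 0.04, SE, adjusted p = 9.5e-05). HARS, the cytosolic histidyl enzyme, rose, with 11.3, 11.7 and 12.5 FPKM, against 8.88, 8.78 and 8.44 FPKM, a log2 change of 0.40 ± 0.06 (SE, adjusted p = 3.4e-06) that was 0.08 (adjusted p = 0.26) against the other control. NARS was at 46.8, 46.4 and 48.5 FPKM, against 40.9, 41.0 and 41.4 FPKM (0.20 ± 0.04, SE, adjusted p = 9.0e-04), and was the cytosolic gene called higher against both controls, with its call lost at the fixed sum (0.098). FARSB (-0.20), VARS (-0.21), KARS (-0.16) and FARSA (-0.15) fell, and TARS (0.15) and MARS (0.13) rose. Against the other control VARS (-0.10), TARS (-0.07) and MARS (0.02) were not called. With a library left out, the calls of KARS (-0.19 to -0.14), MARS (0.09 to 0.18) and FARSA (-0.19 to -0.12) were lost in 4, 4 and 2 of the 6 fits. CARS and GARS, the genes that moved most in SK-N-BE(2), were at 0.13 and -0.13 (adjusted p = 0.10 and 0.10).

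Among the mitochondrial genes NARS2, the asparaginyl enzyme, was at 7.20, 7.001 and 6.83 FPKM in SH-SY5Y knockdown libraries, against 10.6, 11.1 and 10.9 FPKM in their controls, a log2 change of -0.57 ± 0.05 (SE, adjusted p = 1.5e-09). HARS2 was at 16.9, 14.6 and 15.8 FPKM, against 11.1, 11.1 and 11.6 FPKM (0.45 ± 0.07, SE, adjusted p = 2.9e-05), and IARS2 at 40.3, 40.2 and 42.8 FPKM, against 47.6, 46.5 and 49.0 FPKM (-0.21 ± 0.03, SE, adjusted p = 2.2e-05). None of the 3 pairs of groups overlapped, but IARS2 was at -0.02 (adjusted p = 0.69) against the other control. TARS2, the threonyl enzyme, was at 9.76, 10.1 and 9.43 FPKM, against 11.9, 11.5 and 12.3 FPKM (-0.26 ± 0.06, SE, adjusted p = 9.8e-04), again without overlap. MARS2 (-0.23, with overlapping groups) and RARS2 (-0.14) fell, while WARS2 (0.30), FARS2 (0.29), EARS2 (0.24) and CARS2 (0.15) rose. Against the other control MARS2 (-0.02), WARS2 (0.13), FARS2 (0.11) and CARS2 (0.03) were not called, while HARS2 (0.30) and EARS2 (0.31) were called higher there too. Without knockdown library 2 or control library 3, 3 mitochondrial members in place of 5 were called lower, since MARS2 (-0.29 to -0.14) and RARS2 (-0.15 to -0.13) lost their calls; CARS2 lost its own without control library 3 (0.13). ATF4 held 43.5, 41.8 and 46.0 FPKM in knockdown libraries, against 30.7, 31.1 and 30.4 FPKM in controls, a log2 change of 0.50 ± 0.07 (SE, adjusted p = 4.2e-06), and DDIT3 averaged 7.41 FPKM, against 7.91 FPKM.

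The knockdown effect itself differed between the lines for most cytosolic members, while 9 of the 16 mitochondrial members were not called. Tested as an interaction, SK-N-BE(2) minus SH-SY5Y, 16 cytosolic members had a higher change in SK-N-BE(2) and 2 a lower one, and 1 mitochondrial member had a higher and 6 a lower one; the shares over all tested genes were 29.5% and 26.3%. Scaled to a fixed sum, 6288 genes were called higher and 2759 lower in this test, in place of 4687 and 4187, and the median over all genes moved to 0.16, against 0.01 as deposited; the numbers of members called were then 18 cytosolic and 7 mitochondrial. GARS (2.11 ± 0.09, SE, adjusted p = 1.6e-13), AARS (2.02 ± 0.07, SE, adjusted p = 9.2e-15) and CARS (1.99 ± 0.09, SE, adjusted p = 4.0e-13) differed most. The lower cytosolic genes were QARS (-0.30) and VARS (-0.27), and HARS (0.09) and KARS (0.14) did not pass the test. NARS2 was the mitochondrial gene with the higher change, 0.70 ± 0.06 (SE, adjusted p = 1.6e-08), and WARS2 had the lowest among those called, -0.75 ± 0.10 (SE, adjusted p = 3.7e-06). This interaction was not fitted with the other controls. Against the other control of each line, WARS2 changed by 0.31 in SK-N-BE(2) and 0.13 in SH-SY5Y. For QARS the values were 0.28 and 0.08, and for VARS -0.05 and -0.10, so these genes then had the higher change in SK-N-BE(2). GARS (1.54 and -0.12), AARS (1.17 and 0.06), CARS (1.61 and 0.18) and NARS2 (-0.03 and -0.43) kept their direction. The lines also differed in the depth of the knockdown and in ATF4, whose change was higher in SK-N-BE(2) by 0.87 ± 0.10 (SE, adjusted p = 2.7e-07); the part of either in the members' difference was not tested.

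Some members were called in both lines, each against its own control. The share of all tested genes called in both lines, the same way or opposite ways, was not counted. In each line 26.3% to 29.6% of them were called in each direction. HARS, MARS, NARS and TARS rose in both, and DARS and VARS fell in both. AARS, EPRS, FARSA and LARS rose in SK-N-BE(2) and fell in SH-SY5Y. Of the mitochondrial genes FARS2 and HARS2 rose and IARS2, MARS2 and TARS2 fell in both lines, NARS2 rose in SK-N-BE(2) and fell in SH-SY5Y, and CARS2 and WARS2 fell in SK-N-BE(2) and rose in SH-SY5Y. Several of these calls were not made against the other control of the line. There, only NARS among the members higher in both lines and only TARS2 among those lower in both were still called that way in both. EPRS and FARSA were still called higher in SK-N-BE(2) and lower in SH-SY5Y, whereas AARS and LARS, NARS2, CARS2 and WARS2 each lost the call in at least 1 line. DARS and WARS2 were called higher in SK-N-BE(2) there, at 0.12 and 0.31.

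**Figure D4:**
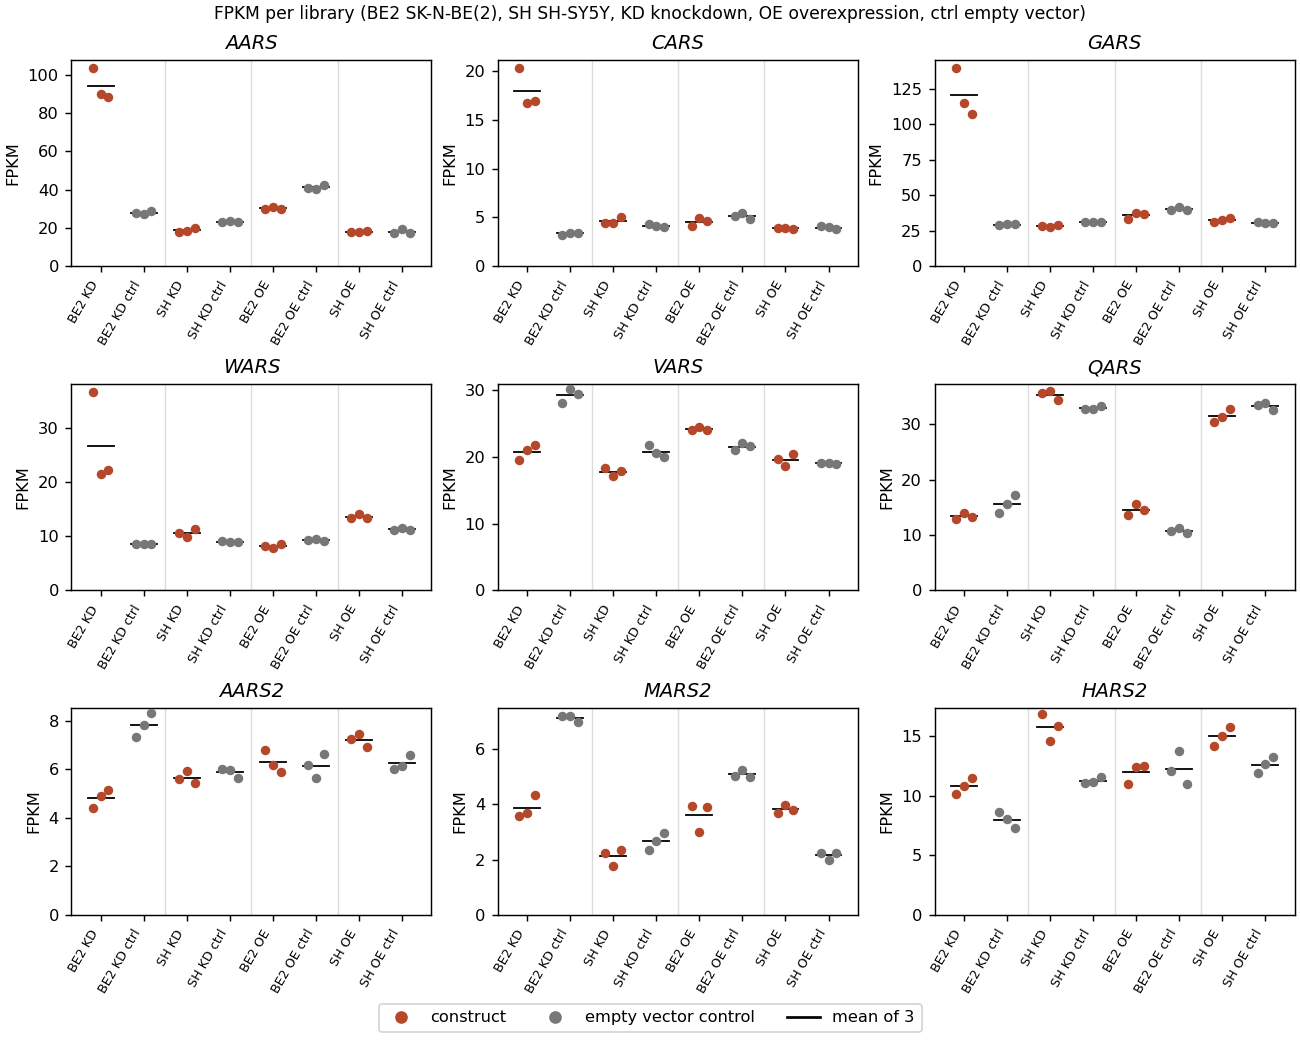
FPKM in each of the 24 libraries for 9 members; red dots are libraries with a construct, grey dots empty vector controls and black lines means of 3. AARS, CARS, GARS and WARS stand apart in the SK-N-BE(2) knockdown group. A step between the 2 control groups of SK-N-BE(2) shows in AARS, CARS and GARS too, as it does in VARS, QARS, AARS2, MARS2 and HARS2.

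Overexpression in SK-N-BE(2) left 14 of the 20 cytosolic and 14 of the 16 mitochondrial members without a call. The cytosolic share without a call was near that over all tested genes, given below. NDUFS6 rose little in this comparison, and its part in these counts was not tested. The cytosolic genes summed to 596 ± 6.52 FPKM in overexpression libraries and 594 ± 6.55 FPKM in their controls, and the mitochondrial genes to 145 ± 4.03 and 141 ± 2.18 FPKM (SD, n = 3 each). Of all tested genes 12.9% were called higher and 16.8% lower; 4 cytosolic members were higher and 2 lower, and 1 mitochondrial member was higher and 1 lower. Under a fixed sum, 1616 genes were called higher and 3405 lower, and under median-of-ratios scaling 2545 and 2186, in place of 2046 and 2670. AARS was at 30.05, 30.8 and 29.8 FPKM in overexpression libraries, against 41.1, 40.2 and 42.2 FPKM in their controls (-0.43 ± 0.05, SE, adjusted p = 6.3e-06), and MARS at 9.83, 10.4 and 10.3 FPKM, against 14.0, 14.1 and 13.7 FPKM (-0.42 ± 0.05, SE, adjusted p = 1.3e-05). QARS was at 13.7, 15.6 and 14.4 FPKM, against 10.8, 11.2 and 10.4 FPKM (0.40 ± 0.06, SE, adjusted p = 4.7e-05), and DARS at 28.5, 28.1 and 30.4 FPKM, against 22.5, 23.5 and 23.8 FPKM (0.30 ± 0.04, SE, adjusted p = 3.9e-05). None of these 4 pairs of groups overlapped, but lack of overlap was common here. Of the cytosolic members 5 lay wholly higher, 7 wholly lower and 8 overlapped, more than were called. VARS was at 24.1, 24.4 and 24.0024 FPKM, against 21.0, 22.04 and 21.6 FPKM (0.16 ± 0.04, SE, adjusted p = 0.0094), and KARS rose by 0.18, with overlapping groups and a call lost in 4 of the 6 fits that left out a library (0.13 to 0.23).

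MARS2 was at 3.96, 2.98 and 3.91 FPKM in SK-N-BE(2) overexpression libraries, against 5.04, 5.27 and 4.99 FPKM in their controls, a log2 change of -0.41 ± 0.09 (SE, adjusted p = 0.0016). RARS2, the mitochondrial arginyl enzyme, was at 12.0, 13.3 and 14.0 FPKM, against 11.0, 12.4 and 11.5 FPKM (0.15 ± 0.05, SE, adjusted p = 0.022), with overlapping groups and a call lost in 4 of the 6 fits that left out a library (0.11 to 0.21). ATF4 changed by 0.26 ± 0.07 (SE, adjusted p = 0.0081) and DDIT3 by 0.48 ± 0.14 (SE, adjusted p = 0.013).

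AARS and MARS thus rose with knockdown and fell with overexpression, and DARS, QARS and VARS fell with knockdown and rose with overexpression, each against its own control. How many of all tested genes had opposite calls for the constructs was not counted. The 2 controls of the line differ in the same genes. Knockdown control minus overexpression control, 3 cytosolic members were higher and 12 lower, and 5 mitochondrial members were higher and 3 lower, where 15.5% of all tested genes were called higher and 19% lower; at a fixed sum the gene counts were 1541 and 4635, in place of 2472 and 3015. AARS held 94.0 and 30.2 FPKM with knockdown and overexpression, against 27.8 and 41.2 FPKM in the control of each. QARS held 13.4 and 14.6 FPKM with the constructs, against 15.6 and 10.8 FPKM in the controls. The log2 differences between the controls were -0.55 ± 0.05 (SE, adjusted p = 6.9e-08) for AARS, -0.53 for SARS, -0.52 for YARS, -0.50 for CARS and 0.49 ± 0.06 (SE, adjusted p = 1.1e-06) for QARS.

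Set against the other control, the overexpression changes of these 5 genes were 0.12 for AARS, 0.03 for MARS, 0.04 for DARS, -0.09 for QARS and -0.26 for VARS, so 4 of the 5 turned their sign. Only KARS among the cytosolic and RARS2 and MARS2 among the mitochondrial members were called the same way against both controls. The knockdown changes of AARS and MARS were 1.17 and 0.96 against the other control. In SK-N-BE(2) the level of ATF4 also differed between the controls, by -0.43 ± 0.07 (SE, adjusted p = 6.6e-05). WARS2 (0.75 ± 0.07, SE, adjusted p = 1.1e-07) and HARS2 (-0.56 ± 0.07, SE, adjusted p = 6.4e-06) had the widest mitochondrial differences between them.

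**Figure D5:**
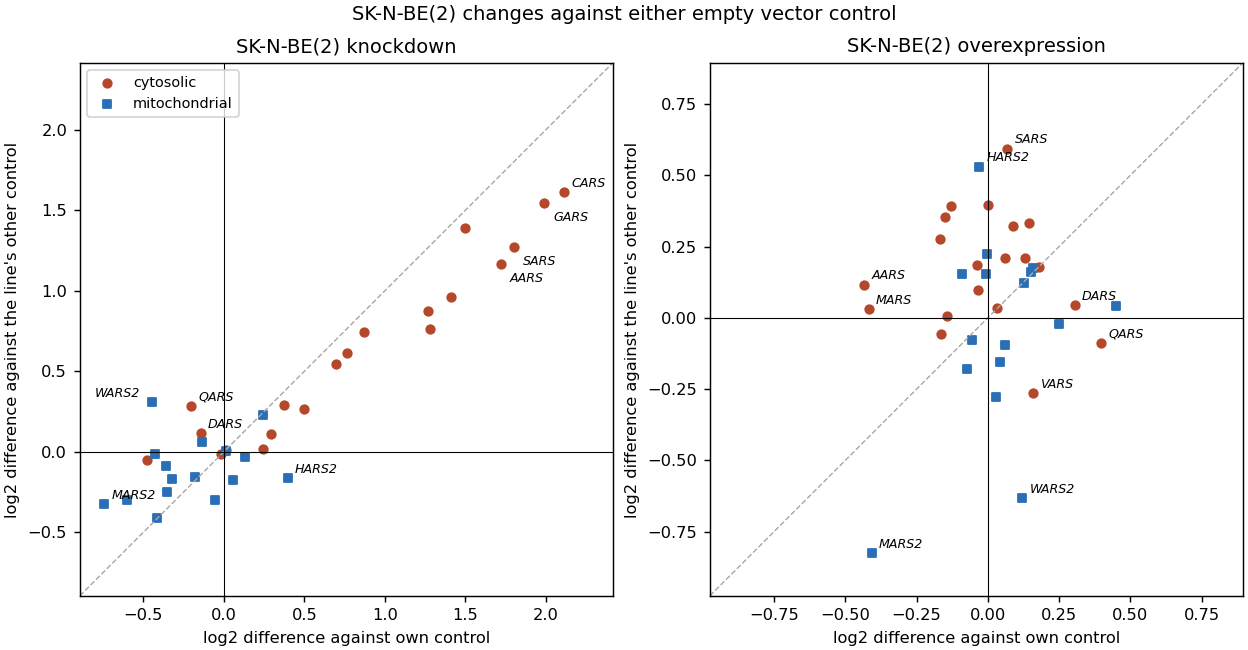
Log2 change of each member in SK-N-BE(2) against its own empty vector control (horizontal) and against the other empty vector control of the line (vertical), for knockdown (left) and overexpression (right); red circles are cytosolic and blue squares mitochondrial genes, and the dashed line marks equal values. After knockdown CARS, GARS, SARS, AARS and WARS stay above 1 on both axes, whereas after overexpression AARS, MARS, QARS and VARS change sign.

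Overexpression in SH-SY5Y, where NDUFS6 rose the most, moved members of both compartments upward by small amounts. The cytosolic genes summed to 509 ± 9.65 FPKM in overexpression libraries and 478 ± 3.81 FPKM in their controls, and the mitochondrial genes to 142 ± 2.54 and 130.4 ± 1.09 FPKM (SD, n = 3 each). Of all tested genes 15.4% were called higher and 17.2% lower; 7 cytosolic members were higher and 0 lower, and 9 mitochondrial members were higher and 1 lower. The median log2 change was 0.09 for the cytosolic and 0.16 for the mitochondrial members, against -0.01 over all tested genes. LARS was at 43.9, 45.0 and 43.5 FPKM in overexpression libraries, against 36.4, 36.8 and 36.5 FPKM in their controls, a log2 change of 0.27 ± 0.04 (SE, adjusted p = 9.2e-06). FARSB was at 8.96, 8.37 and 9.35 FPKM, against 6.56, 6.99 and 7.56 FPKM (0.30 ± 0.05, SE, adjusted p = 4.9e-05), and FARSA at 39.5, 39.9 and 41.7 FPKM, against 33.5, 35.8 and 36.6 FPKM (0.19 ± 0.05, SE, adjusted p = 0.0056), so both chains of the phenylalanyl enzyme rose. MARS was at 17.8, 19.4 and 18.8 FPKM, against 16.2, 16.6 and 16.5 FPKM (0.17 ± 0.05, SE, adjusted p = 0.016), and HARS at 12.4, 12.9 and 12.9 FPKM, against 11.6, 11.0 and 11.0 FPKM (0.17 ± 0.06, SE, adjusted p = 0.021). None of these groups overlapped. With a library left out, the calls of IARS (0.18), NARS (0.12), HARS and MARS were lost in 6, 5, 4 and 2 of the 6 fits. The count of 7 became 3 without overexpression library 2 and 4 without overexpression library 3 or control library 1 or 2.

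MARS2 was at 3.67, 3.99 and 3.82 FPKM in SH-SY5Y overexpression libraries, against 2.25, 1.99 and 2.23 FPKM in their controls, a log2 change of 0.61 ± 0.09 (SE, adjusted p = 1.5e-05) and the largest of this comparison in the family. EARS2, the glutamyl enzyme, was at 5.88, 6.34 and 6.23 FPKM, against 3.81, 5.03 and 4.22 FPKM (0.42 ± 0.07, SE, adjusted p = 5.7e-05), and LARS2, the leucyl enzyme, at 3.40, 3.41 and 3.60 FPKM, against 2.79, 2.71 and 2.67 FPKM (0.26 ± 0.05, SE, adjusted p = 6.3e-04). In these 3 genes every overexpression library lay above every control. NARS2 fell, with 7.95, 8.92 and 8.61 FPKM, against 9.75, 9.70 and 9.97 FPKM (-0.19 ± 0.05, SE, adjusted p = 0.0033). SARS2 (0.50), WARS2 (0.26), HARS2 (0.23), AARS2 (0.18), CARS2 (0.14) and IARS2 (0.12) rose, the last at -0.08 against the other control. AARS2 (0.15 to 0.21) and CARS2 (0.12 to 0.17) lost their calls in 4 and HARS2 (0.20 to 0.27) in 3 of the 6 fits that left out a library. SARS2 shares 46.2% of its exon bases with AC011455.2 on the same strand, so its reads could be split between the 2 records. ATF4 was at 30.9 FPKM, against 34.7 FPKM (-0.16, adjusted p = 0.082).

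The overexpression effect differed between the lines in 2 cytosolic members that were higher and 7 that were lower in SK-N-BE(2), and in 2 mitochondrial members that were higher and 4 lower, beside 18.3% and 18.5% of all tested genes; at a fixed sum 2376 genes were higher and 3859 lower, in place of 2915 and 2935. MARS2 differed most, by -1.02 ± 0.12 (SE, adjusted p = 2.5e-06). MARS, its cytosolic counterpart, differed by -0.59 ± 0.07 (SE, adjusted p = 5.8e-06), and QARS by 0.47 ± 0.08 (SE, adjusted p = 1.2e-04) in the other direction. Against the other control of SK-N-BE(2) the overexpression changes of MARS (0.03) and QARS (-0.09) were not called, while MARS2 (-0.83) was called lower. The difference between the lines was not fitted with the other controls. The 2 controls of SH-SY5Y, knockdown control minus overexpression control, had 3 cytosolic members higher and 4 lower and 2 mitochondrial members higher and 1 lower, where 18.4% of all tested genes were higher and 17.8% lower. FARSA (-0.40 ± 0.05, SE, adjusted p = 1.8e-06), AARS (0.36 ± 0.05, SE, adjusted p = 1.4e-05) and HARS (-0.33 ± 0.06, SE, adjusted p = 1.1e-04) differed most between them among the cytosolic members.

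Across the 4 construct comparisons MARS and MARS2 were called in all 4, and PARS2, VARS2 and YARS2 in none. The share of all tested genes called in all or in none of the comparisons was not counted. MARS2 fell in 3 of the 4 comparisons and rose in SH-SY5Y overexpression. Its SH-SY5Y knockdown change was -0.02 against the other control, where it was not called. With only the groups compared, its SK-N-BE(2) overexpression call was lost (-0.41, limma, adjusted p = 0.057). MARS was not called against the other control in SH-SY5Y knockdown (0.02) or SK-N-BE(2) overexpression (0.03), and its SH-SY5Y knockdown call was also lost in 4 of the 6 fits that left out a library and with a replicate block. VARS2 varied most between libraries of a group relative to its level, with 3.46, 2.13 and 1.31 FPKM in SK-N-BE(2) knockdown libraries, against 2.09, 4.24 and 3.81 FPKM in their controls, and 22% of its exon bases lie in GTF2H4 on the same strand. In all, 6 members share exon bases with another gene on the same strand and 17 with a gene on the opposite strand, and 11 have a pseudogene named after them, so their values are uncertain to that extent.

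Other genes of tRNA charging, tRNA export and elongation moved in both directions. Of 24 related genes 23 were tested. In SK-N-BE(2) knockdown cells 7 rose and 6 fell, with a median log2 change of 0.01, beside 27.4% and 28.3% of all tested genes, shares that are close to the list's own. In SH-SY5Y knockdown cells 1 rose and 8 fell, beside 26.3% and 29.6%. Overexpression gave 4 higher and 0 lower in SK-N-BE(2), beside 12.9% and 16.8%, and 7 higher and 4 lower in SH-SY5Y, beside 15.4% and 17.2%. MTFMT, which formylates the mitochondrial initiator tRNA, was at 2.34, 3.01 and 2.42 FPKM in SK-N-BE(2) knockdown libraries, against 3.70, 4.24 and 4.61 FPKM in their controls (-0.53 ± 0.10, SE, adjusted p = 1.1e-04). In SH-SY5Y it was at 2.99, 2.83 and 3.43 FPKM with knockdown, against 4.74, 3.46 and 4.53 FPKM (-0.35 ± 0.10, SE, adjusted p = 0.0042). It fell in both lines, without overlap of the groups.

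XPOT, the exporter of tRNAs from the nucleus, was at 64.4, 50.6 and 55.1 FPKM in SK-N-BE(2) knockdown libraries, against 29.8, 31.0 and 31.3 FPKM in controls (0.86 ± 0.06, SE, adjusted p = 1.5e-10), and changed by 0.03 (adjusted p = 0.73) in SH-SY5Y. EEF1A2, an elongation factor that delivers charged tRNAs to the ribosome, moved in opposite directions in the lines, at 1.42 ± 0.07 (SE, adjusted p = 4.3e-13) in SK-N-BE(2) and -2.52 ± 0.07 (SE, adjusted p = 3.8e-17) in SH-SY5Y. GFM2, a mitochondrial ribosome recycling factor, rose by 0.35 in SK-N-BE(2), and DTD1, which removes D-amino acids from tRNAs, and GATC, a subunit of the mitochondrial glutaminyl-tRNA amidotransferase, fell in SH-SY5Y (log2 changes -0.48 and -0.47). With overexpression in SK-N-BE(2) the called genes were EEF2 (0.23), TUFM (0.36), DTD1 (0.20) and EEF1D (0.23), all higher. In SH-SY5Y those with the smallest adjusted p were GFM1 (0.30), QRSL1 (0.27) and AIMP2, a scaffold of the multi-synthetase complex (0.46), which rose, and EEF2 (-0.16), which fell.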

How the data were processed

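Total RNA of 24 libraries was extracted with TRIzol and made into strand-specific TruSeq libraries, per the labels' protocols. The hg38 build, StringTie 1.3.1c, STAR without a version and FastQC 0.11.2 are listed, per the submitters' processing notes; counting settings and the annotation release were not stated. The deposited table holds FPKM per gene, made by the authors, for 60564 genes; summed FPKM per library ran from 249708 to 276091. Counts were not used, so the depth is unknown and the spread of 3 libraries a group is the measure of precision. Every library carries the same batch label.

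limma 3.58.1 in R 4.3.3 (package data.table, version 1.17.8) fitted log2(FPKM + 1) over all 24 libraries and 8 groups (16 residual degrees of freedom) with trend and robust moderation, on the 15903 genes that reached 1 FPKM in 3 or more libraries. Tests are two-sided, with Benjamini-Hochberg adjustment over all tested genes at 0.05. The fit was tested on simulated data. Python 3.11.15 with pandas 2.3.3 matched motifs and positions (GENCODE 29 genes, RefSeq promoter windows of GRCh38.p14). Protein sequences were not used here.

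The members, gene lists and named-gene rule were chosen with earlier results of these data known. Libraries were listed one by one for, per construct comparison, the 5 cytosolic and 3 mitochondrial called members of smallest adjusted p and up to 2 of each class called against its majority; SARS, WARS, YARS, VARS2 and DDIT3 were added after their values were seen. Related genes were named up to 4 per comparison, with MTFMT added and XPOT given in both lines; 1 gene of that list is not reported here by name. Alternatives were another pseudocount (0.1), no filter, a mean of at least 5 FPKM, 2 scalings, fits with only the groups compared, a replicate block, each library left out, and the other empty vector control.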

Additional observations from a re-analysis of the deposited data

Results flagged for a closer look

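The values given here are tests of the difference between the lines, SK-N-BE(2) minus SH-SY5Y, in the change of each member, on the log2(FPKM + 1) scale, and each passed an adjusted p of 0.05. For knockdown the difference was above 1 in 9 cytosolic genes: AARS (2.02), CARS (1.99), EPRS (1.09), GARS (2.11), MARS (1.28), SARS (1.71), TARS (1.11), WARS (1.28) and YARS (1.24). It was smaller and positive in DARS (0.44), FARSA (0.52), FARSB (0.21), IARS (0.75), LARS (0.44), NARS (0.68) and RARS (0.38), and negative in QARS (-0.30) and VARS (-0.27). Of the mitochondrial genes AARS2 (-0.56), CARS2 (-0.33), EARS2 (-0.37), LARS2 (-0.30), MARS2 (-0.52) and WARS2 (-0.75) had the lower change in SK-N-BE(2), and NARS2 (0.70) the higher one. DARS fell in both lines against its own controls, so its positive difference is a smaller decrease in SK-N-BE(2). These differences were not fitted with the other controls. Against those, WARS2, QARS and VARS had the higher change in SK-N-BE(2). MARS (0.96), TARS (0.87), YARS (0.76) and EPRS (0.54) then rose by less than 1 in SK-N-BE(2), with 0.02, -0.07, 0.19 and -0.34 in SH-SY5Y. AARS, CARS, GARS, SARS and WARS stayed above 1 in SK-N-BE(2).

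For overexpression AARS (-0.43), FARSB (-0.27), GARS (-0.26), IARS (-0.33), LARS (-0.30), MARS (-0.59) and YARS (-0.22) had the lower change in SK-N-BE(2), and DARS (0.35) and QARS (0.47) the higher one. The mitochondrial differences were -0.20 in CARS2, -0.38 in EARS2, -0.34 in LARS2 and -1.02 in MARS2, with 0.18 in NARS2 and 0.25 in RARS2. Several of these differences depend on the SK-N-BE(2) control used. Against that line's other control the overexpression changes of AARS (0.12), MARS (0.03), DARS (0.04) and QARS (-0.09) were not called, while MARS2 (-0.83) was called lower. NDUFS6 itself rose by a log2 change of 0.39 in SK-N-BE(2) and 4.13 in SH-SY5Y in this comparison. Groups of 3 libraries are too small for the check on single outlying samples.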

How the results depend on the processing

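Called members are counted here per construct comparison, 76 in all, so a gene called in several is counted for each. A pseudocount of 0.1 changed no call among these 76. Median of ratios ended 4, no filter 7, a fixed sum 10 and fits of only the groups compared 12. A mean of 5 FPKM kept 60 of the 76 and ended none of their calls. Against the line's other control 14 of the 76 lost their call and 12 turned round: in SK-N-BE(2) knockdown QARS (0.28), HARS2 (-0.16), DARS (0.12), NARS2 (-0.029) and WARS2 (0.31); in SH-SY5Y knockdown AARS (0.059) and TARS (-0.071); in SK-N-BE(2) overexpression AARS (0.12), MARS (0.029), QARS (-0.089) and VARS (-0.26); in SH-SY5Y overexpression IARS2 (-0.075).

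Counts of members called, or the median cytosolic minus mitochondrial log2 change, moved as follows. SK-N-BE(2) knockdown: 1 cytosolic lower at a fixed sum and 0 against the other control; 5 and 1 mitochondrial higher in the same order; 3 mitochondrial lower at a mean of 5 FPKM; median gap 0.79 at that filter and 0.74 against the other control. SH-SY5Y knockdown: 1 cytosolic higher at a fixed sum; 2 mitochondrial higher at a mean of 5 FPKM, 3 at a fixed sum and 2 against the other control; median gap -0.0023 at a fixed sum and -0.076 against the other control. SK-N-BE(2) overexpression: 11 cytosolic higher against the other control and 2 with only the groups compared; 5 cytosolic lower at a fixed sum and 1 against the other control; mitochondrial higher 0 at a fixed sum, 2 by median of ratios, 4 against the other control and 0 with only the groups compared; mitochondrial lower 0 at a mean of 5 FPKM, 5 against the other control and 0 with only the groups compared; median gap 0.17 against the other control. SH-SY5Y overexpression: 2 cytosolic lower against the other control, 4 mitochondrial higher at a mean of 5 FPKM; median gap 0.0016 at that filter and -0.16 against the other control. At a mean of 5 FPKM, 3 mitochondrial members differed between lines after knockdown and 7 between the controls of the lines; without a filter, 4 cytosolic members differed between the SH-SY5Y controls. The causes were not tested, beyond fewer genes being tested at the stricter filter.

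Leaving out 1 library, SK-N-BE(2) knockdown kept 15 cytosolic members higher and 3 lower in every fit, with 1 to 3 mitochondrial higher (1 without knockdown or control library 2), 7 to 8 lower and a median gap of 0.89 to 1.05. For SH-SY5Y knockdown the counts were 3 to 4 and 6 to 9 cytosolic, 4 to 5 and 3 to 5 mitochondrial (3 lower without knockdown library 2 or control library 3), with a median gap of -0.027 to 0.041. For SK-N-BE(2) overexpression 3 to 6 and 2 to 3 cytosolic, 0 to 2 and 1 mitochondrial members were called, with a gap of -0.053 to -0.0063. For SH-SY5Y overexpression they were 3 to 6 and 0, 6 to 9 and 1, with a gap of -0.09 to -0.05. The SH-SY5Y controls differed in 4 to 5 cytosolic and 2 to 5 mitochondrial members. Of the 76 called members, counted per construct comparison, 58 kept their call in every such fit.

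Most same-numbered libraries did not deviate together (correlations -0.08 to 0.37, with not every pair above 0.1 in any comparison). In SK-N-BE(2) overexpression, libraries 1 and 2 had correlations of 0.14 and 0.37 with their controls, and library 3 had -0.08. Whether these libraries share more than a number is unknown. With the replicate block SK-N-BE(2) knockdown had 15 cytosolic members higher and 3 lower; 1 of the 76 calls was lost, MARS in SH-SY5Y knockdown. FPKM without read numbers limits what can be said of genes near 1 FPKM, such as LARS2.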

Other observations

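The rank of the members changed in SK-N-BE(2) knockdown libraries. SARS (127 ± 14.7 FPKM), EPRS (122 ± 11.2 FPKM), GARS (121 ± 17.1 FPKM) and AARS (94.0 ± 8.14 FPKM) were the 4 highest cytosolic members there, while EPRS, IARS, KARS and LARS were in the knockdown controls, at 74.7 ± 1.12, 42.3 ± 1.28, 40.6 ± 0.718 and 39.8 ± 0.302 FPKM (SD, n = 3 each). The lowest cytosolic member was HARS in the knockdown libraries, at 10.2 ± 0.562 FPKM, and CARS in the controls, at 3.37 ± 0.104 FPKM. By class, 0 of the 9 class I mitochondrial enzymes rose and 5 fell in SK-N-BE(2) knockdown cells, and 3 of the 7 class II enzymes rose and 3 fell, where 27.4% of all tested genes rose and 28.3% fell. The 3 class II genes that rose, FARS2, HARS2 and NARS2, were not called higher against the line's other control.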
